A study of Mus musculus with 6 samples.

Results

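The genes described here are 10 members of the Ly6 family of the mouse, in the wide sense of the gene names: the 4 measured genes of the Ly6g6 cluster in the MHC region of chromosome 17 (Ly6g6c, Ly6g6d, Ly6g6e and Ly6g6f) and 6 genes of the Ly6 locus on chromosome 15 (Ly6a, Ly6c1, Ly6c2, Ly6d, Ly6e and Slurp1). They are 10 of the 52636 gene rows of the table. They were selected with their measured difference between tuft-like and non-tuft-like medullary thymic epithelial cells (mTEC) in view, so that difference is given below as a description of the 10 genes and without a test. RNA of 3 tuft-like and 3 non-tuft-like libraries, made from sorted thymic cells of C57BL/6 mice at 6 weeks of age, was sequenced with an ultra-low input protocol. Both sorts took cells that bound the lectin UEA, carried little MHCII (labelled MHCIIlo) and lacked CD80, Sca1 and CD63. The tuft-like cells were CD117+ and CD66a+, the non-tuft-like cells CD117- and CD66a-. Neither group carried a transgene or a treatment according to the labels, which do not state how many mice a library holds, so the spread between libraries may be partly technical. Sca1 is the protein of Ly6a, one of the 10 genes, and was gated out in both groups.

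Ly6 proteins share the small, cysteine-rich three-finger fold of the urokinase receptor uPAR. Most are held on the outer cell surface by a glycosylphosphatidylinositol (GPI) anchor, while a few, SLURP1 among them, are secreted. Several bind or modulate nicotinic acetylcholine receptors, and several are induced by interferons, and the family supplies some of the best known surface markers of lymphocyte, monocyte and stem cell subsets. Ly6g6f carries the cluster's name but encodes an immunoglobulin-type membrane protein. Tuft cells are chemosensory epithelial cells that depend on the POU-domain factor POU2F3, and the medulla of the thymus holds cells that resemble them, beside cells that resemble keratinocytes.

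The 4 Ly6g6 genes lie within 20.2 kb (chr17:35065388-35085610, mm10), in the order Ly6g6c (plus strand), Ly6g6d (minus), Ly6g6e (plus) and Ly6g6f (minus). RefSeq start sites of 3 of them are shown. The genes at the ends of this short stretch, Ly6g6c and Ly6g6f, had opposite differences between the groups. Each sequence is the 250 bases before a start, read 5′ to 3′ on the gene's own strand of GRCm38.p6, with matches to the octamer ATGCAAAT, the element bound by POU-domain factors, on either strand in capitals. The Ly6g6f window lies at chr17:35085596-35085845 and reaches into the first GENCODE exon of that gene at its last bases. Of the windows of 3 RefSeq starts of Ly6g6d, the one that holds the octamer is shown, chr17:35081240-35081489. It precedes the outermost start and lies within an intron of Ly6g6f, beyond the GENCODE model of Ly6g6d, which ends at 35078065. The Ly6g6c window is chr17:35067075-35067324 and holds no annotated exon.
Ly6g6f: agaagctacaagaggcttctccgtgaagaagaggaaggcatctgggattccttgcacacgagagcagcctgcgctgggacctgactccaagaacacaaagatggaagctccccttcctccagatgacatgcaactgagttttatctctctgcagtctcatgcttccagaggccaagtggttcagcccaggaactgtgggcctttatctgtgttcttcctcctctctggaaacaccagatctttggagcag
Ly6g6d: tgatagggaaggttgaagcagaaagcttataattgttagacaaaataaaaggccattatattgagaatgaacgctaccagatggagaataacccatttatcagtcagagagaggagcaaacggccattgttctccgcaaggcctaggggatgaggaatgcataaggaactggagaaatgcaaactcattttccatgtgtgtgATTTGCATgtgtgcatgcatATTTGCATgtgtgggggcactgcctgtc
Ly6g6c: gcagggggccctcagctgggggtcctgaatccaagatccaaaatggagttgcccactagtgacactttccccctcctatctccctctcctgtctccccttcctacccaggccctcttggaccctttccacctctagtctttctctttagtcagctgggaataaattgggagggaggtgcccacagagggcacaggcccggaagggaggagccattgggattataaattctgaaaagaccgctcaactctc

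The Ly6g6d window holds the octamer at 48 and again at 28 bases before the start, both times as its reverse complement. The windows of Ly6g6f and Ly6g6c hold none. The windows of the other Ly6g6d starts, chr17:35074493-35074742 and chr17:35078057-35078306, hold none either. Among 32851 RefSeq windows, each running from 250 bases before to 50 after a start, 570 (1.74%) hold the octamer. Of 37 windows that belong to genes of the Ly6/uPAR family, 1 does, the Ly6g6d window shown. Interferon-type motifs were searched in the same way: TTCNNNGAA is in 8.3% of all windows and, within the family, in 1 window (Lypd10), and GAAANNGAA is in 8.56% of all and in 1 of the family (Cd59a). The table of starts had windows for Ly6c1, Ly6c2, Ly6g6c, Ly6g6d and Ly6g6f, and none of these holds either interferon-type motif. Ly6a, Ly6d, Ly6e, Ly6g6e and Slurp1 were not searched. A match is a string of letters and no measured site.

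The libraries held 20097617 to 48369825 reads on genes. Reads in HTSeq's no-feature class could be assigned to no counted feature, and whether they lie in introns or between genes is not known here. Such reads made up 34.4% to 52.5% of the non-tuft-like libraries. In tuft-like replicates 1 to 3 they made up 61.6%, 47.6% and 19.7%. HTSeq's other classes of unassigned reads are not in these shares. The labelled identity was checked on the RNA. All 15 tuft cell markers, Trpm5, Dclk1 and Pou2f3 among them, were higher in tuft-like cells, with a summed level of 12690 to 20819 CPM against 872 to 1123 in non-tuft-like cells (CPM are counts scaled by TMM to a common library total). The CD66a gene Ceacam1 rose with a log2 fold change of 4.12 (SE 0.43, FDR 0.000886), and the CD117 gene Kit had 301 to 451 against 141 to 185 CPM (FDR 0.0678). For other markers both sorts had the same gate, and some of their genes were called while others were not. The MHCII genes H2-Aa, H2-Ab1 and H2-Eb1 were called lower in tuft-like cells (log2 fold changes -2.01, -2.14 and -2.0). Cd63 was not called, with means of 309 and 148 CPM in non-tuft-like and tuft-like cells (FDR 0.252). Cd80 was low and not called, with 9.12 to 18.9 CPM in non-tuft-like and 0.138 to 3.92 CPM in tuft-like libraries (FDR 0.557). Epcam, the gene of the epithelial marker EpCAM, overlapped between the groups (log2 fold change 0.10, SE 0.59). Of 9 mature mTEC markers, 6 were called lower in tuft-like cells, with a summed level of 10075 to 12637 CPM in non-tuft-like and 1532 to 3345 CPM in tuft-like libraries. Among them Aire, the regulator of tissue antigens in mature mTEC, fell by 3.83 on the log2 scale, from a mean of 292 to 20.5 CPM (FDR 0.000334). The part of these differences in the values of the Ly6 genes was not tested. Of 32496 genes tested with edgeR's quasi-likelihood test, 687 (2.11%) passed a false discovery rate (FDR) of 0.05. Of these, 378 (1.16%) were higher and 309 (0.951%) lower in tuft-like cells, and without tuft-like replicate 3, 310 were higher and 612 lower. All 10 Ly6 genes passed the filter on low counts. The test called 2 of them, Ly6g6f and Ly6g6c, and in 7 of the 10 the libraries of the groups did not overlap, which was so in 16.0% of all genes tested. Since the genes were selected on this contrast, nothing is read from these counts. In bulk libraries, fewer cells that express a gene and less RNA per cell cannot be told apart.

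Of the whole set, Ly6g6f had the largest difference in favour of tuft-like cells. Its level was 3.75, 4.60 and 4.23 CPM in the non-tuft-like libraries, replicates 1 to 3, and 86.4, 115 and 188 CPM in tuft-like replicates 1 to 3, with 119 to 216 and 2090 to 6808 counts. The groups did not overlap, and the lowest tuft-like library exceeded the highest non-tuft-like one many times over. The mean of 130 ± 52.4 CPM in tuft-like cells was 30.9 times that of 4.19 ± 0.423 CPM in non-tuft-like cells (SD, n = 3 each), with a fitted log2 fold change of 4.95 (SE 0.39). No exon of Ly6g6f overlaps an exon of another annotated gene, and none of its 50-base stretches recurs in the transcripts of another gene.

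Ly6g6d, a GPI-anchored member, had 5.27, 2.19 and 1.72 CPM in the non-tuft-like libraries and 8.76, 15.4 and 22.0 CPM in the tuft-like ones. It was low in both groups, but all tuft-like libraries lay above all non-tuft-like ones. The ratio of the means was 5.03 and the log2 fold change 2.33 (SE 0.75). To judge such low values, the 99th percentile of counts per kb of exon over 1092 olfactory receptor genes was taken as the background of each library, between 45.7 and 86.3 counts per kb. Since mTEC express tissue-restricted genes, olfactory receptor genes need not be silent in these cells. Whether they are, and to the same degree in both groups, was not tested. Ly6g6d was above it in 3 of 3 tuft-like and 2 of 3 non-tuft-like libraries. Ly6g6d shares 229 bases of exon with Ly6g6e on the opposite strand. Whether the authors counted by strand is not given in the sources used here, so reads of the shared stretch could have been left out or given to either gene.

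Ly6g6e had 51.3, 58.5 and 71.7 CPM in non-tuft-like replicates. In tuft-like replicates it had 23.1, 32.9 and 39.4 CPM. The groups did not overlap, with means of 60.5 ± 10.4 and 31.8 ± 8.21 CPM (SD, n = 3) and a log2 fold change of -0.93 (SE 0.32). It differed from its overlapping neighbour Ly6g6d in the direction of the difference.

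Ly6g6c, at the other end of the cluster, was the most abundant of the 4 genes in non-tuft-like cells. Its level was 392, 522 and 540 CPM there and 44.6, 57.8 and 173 CPM in tuft-like replicates 1 to 3. All tuft-like libraries were lower, and tuft-like replicate 3 stood well above the other two. The non-tuft-like mean was 5.27 times the tuft-like mean, and the log2 fold change was -2.40 (SE 0.50). Without tuft-like replicate 3 it was -3.28. As a share of the summed CPM of the 4 genes, Ly6g6c made up 86.6% to 88.9% in non-tuft-like and 26.2% to 41.0% in tuft-like libraries. The share of Ly6g6f was 0.684% to 0.830% in non-tuft-like and 44.5% to 53.0% in tuft-like libraries.

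**Figure D1:**
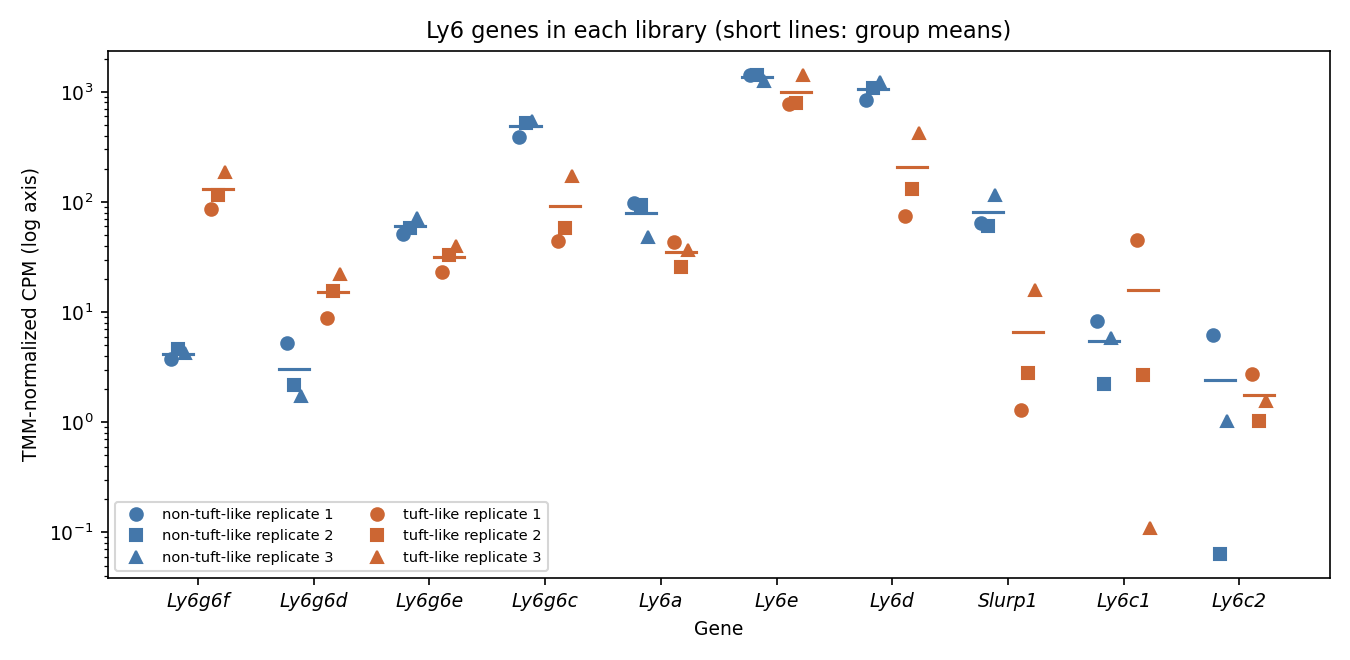
TMM-normalized CPM (log axis) of the 10 Ly6 genes in each library, with blue points for non-tuft-like and orange points for tuft-like replicates 1 (circle), 2 (square) and 3 (triangle) and short lines for the group means. Ly6g6f and Ly6g6d lie higher in all tuft-like libraries, Ly6g6e, Ly6g6c, Ly6a, Ly6d and Slurp1 lower, and Ly6e, Ly6c1 and Ly6c2 overlap.

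The genes around the cluster were tested, since they played no part in the choice of members. Of 25 tested genes within 100 kb of the cluster, edgeR's test called 0, with 2 at an unadjusted p under 0.05. Over all genes tested, 2.11% were called, so a list this short would hold few calls at that share. DESeq2 called 2 (Abhd16a higher and Vars lower) and limma voom 1 (Vars). The median log2 fold change of the 25 genes was -0.14, beside 0.02 over all genes tested. Ly6g6f and its nearest neighbour of 10 CPM or more, Abhd16a, a lipid hydrolase gene, both had higher tuft-like means. Abhd16a had 177 to 261 CPM in non-tuft-like and 289 to 561 CPM in tuft-like libraries (log2 fold change 0.95, SE 0.33, FDR 0.287). Vars, which encodes the valyl-tRNA synthetase, had 430 to 507 against 133 to 319 CPM (log2 fold change -1.16, SE 0.36, FDR 0.192). The cluster's relatives on the far side of Abhd16a, Ly6g5b and Ly6g5c, were at 0 to 3.84 CPM in every library.

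**Figure D2:**
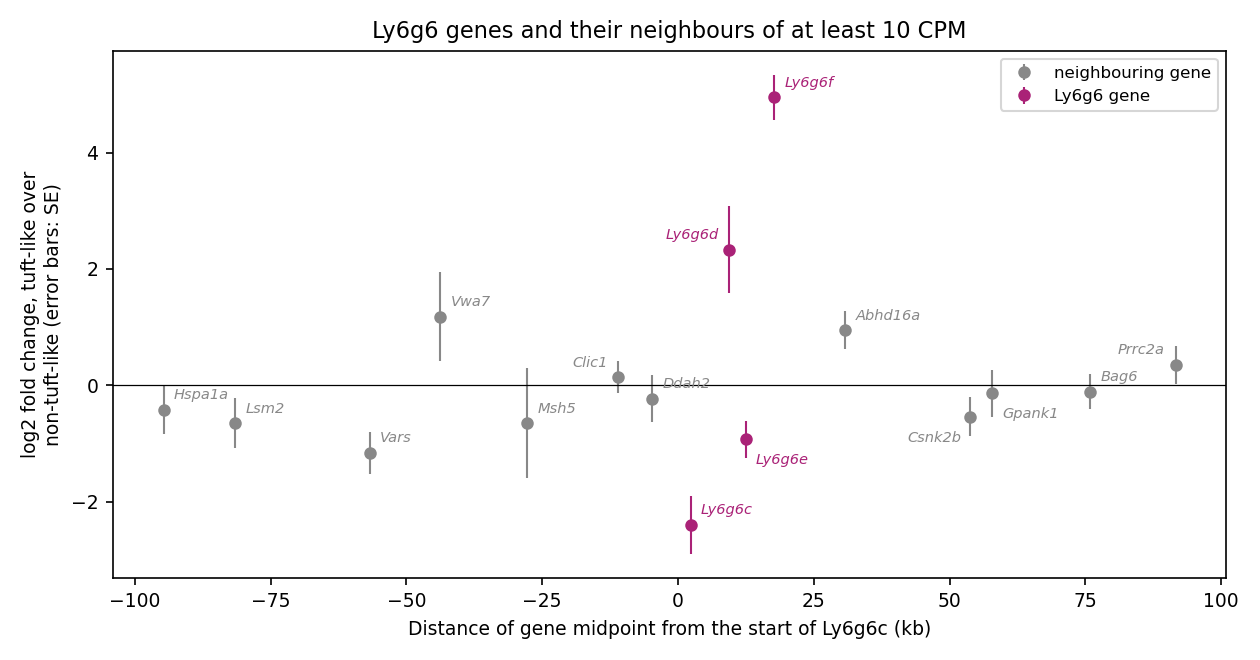
Log2 fold change (tuft-like over non-tuft-like, error bars SE) against the distance of each gene's midpoint from the start of Ly6g6c in kb, for the 4 Ly6g6 genes (purple) and 12 neighbours whose mean reached 10 CPM in either group (grey). The Ly6g6 genes span -2.40 to 4.95 within 20.2 kb, while the grey neighbours lie between -1.16 and 1.18.

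On chromosome 15, Ly6a encodes Sca1, an interferon-inducible surface antigen used to mark stem and progenitor cells. Its level was 98.6, 93.4 and 48.1 CPM in the non-tuft-like libraries, replicates 1 to 3, and 43.6, 25.7 and 36.4 CPM in tuft-like replicates 1 to 3. All non-tuft-like libraries were higher, although non-tuft-like replicate 3 was close to tuft-like replicate 1. The means were 80.0 ± 27.8 and 35.2 ± 8.97 CPM (SD, n = 3), with a log2 fold change of -1.18 (SE 0.35). The transcript was above the olfactory receptor background in all 6 libraries although both sorts were gated as Sca1-. Of the 50-base stretches of the Ly6a transcripts, 19.0% also occur in other genes, chiefly Ly6c1 and Ly6i.

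Ly6e encodes thymic shared antigen 1, another interferon-inducible member, found on immature thymocytes and on thymic medullary epithelium. It had the highest read level of the 10 genes, with 1424, 1429 and 1250 CPM in non-tuft-like replicates. In tuft-like replicates it had 778, 784 and 1421 CPM. The groups overlapped, because tuft-like replicate 3 was as high as the non-tuft-like libraries. The log2 fold change was -0.46 (SE 0.37), and -0.85 without that library.

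Ly6d, a surface antigen of keratinocytes that also marks B cell-biased lymphoid progenitors, had 842, 1082 and 1233 CPM in non-tuft-like cells. The tuft-like values were 74.8, 132 and 422 CPM, in the order of replicates 1 to 3. They lay below every non-tuft-like value but spread over a wide range among themselves. The non-tuft-like mean was 5.03 times the tuft-like mean (log2 fold change -2.33, SE 0.58). No 50-base stretch of Ly6d recurs in another gene.

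Slurp1 encodes a secreted keratinocyte protein that modulates nicotinic acetylcholine receptors, and its loss in humans causes a thickening of the skin of palms and soles. It had 64.4, 60.3 and 117 CPM in non-tuft-like replicates. In tuft-like replicates it had 1.28, 2.78 and 15.9 CPM. The groups did not overlap, with a ratio of the means of 12.1 in favour of non-tuft-like cells and a log2 fold change of -3.59 (SE 0.81). Slurp1 was above the olfactory receptor background in all non-tuft-like libraries but in only 1 tuft-like library, replicate 3. Its exons share 322 bases with those of Them6 on the other strand.

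Tuft-like replicate 3 was the highest and replicate 1 the lowest tuft-like library in Ly6g6c, Ly6d and Slurp1, but also in Ly6g6d, Ly6g6e, Ly6g6f and Ly6e and in the summed tuft cell and mature mTEC markers, so this order sets no group of genes apart. The summed level of a list of 13 keratinocyte markers, which had the same order although Krt1, Flg and Sprr1b did not, was 262, 722 and 1774 CPM in tuft-like replicates 1 to 3 and 5202 to 7923 CPM in non-tuft-like libraries. Of the 13 markers, 13 had a lower tuft-like estimate and 8 were called (Calm4, Dmkn, Flg, Grhl1, Ivl, Sbsn, Spink5 and Sprr1a), with a median log2 fold change of -3.10. Dmkn, a secreted epidermal protein, fell from 1096 to 1558 CPM to 51 to 322 CPM. The highest marker of the list, Krtdap, had 23.2, 144 and 396 CPM in the tuft-like libraries and 1315 to 1798 CPM in the others (FDR 0.0917). None of the defining markers was at 0 in all libraries. Tuft-like replicate 3 also had the smallest TMM factor (0.789) and the lowest share of no-feature reads. Without it the log2 fold changes were -3.39 for Ly6d and -5.33 for Slurp1. The part of these markers and of that library's properties in the values of the Ly6 genes was not tested.

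**Figure D3:**
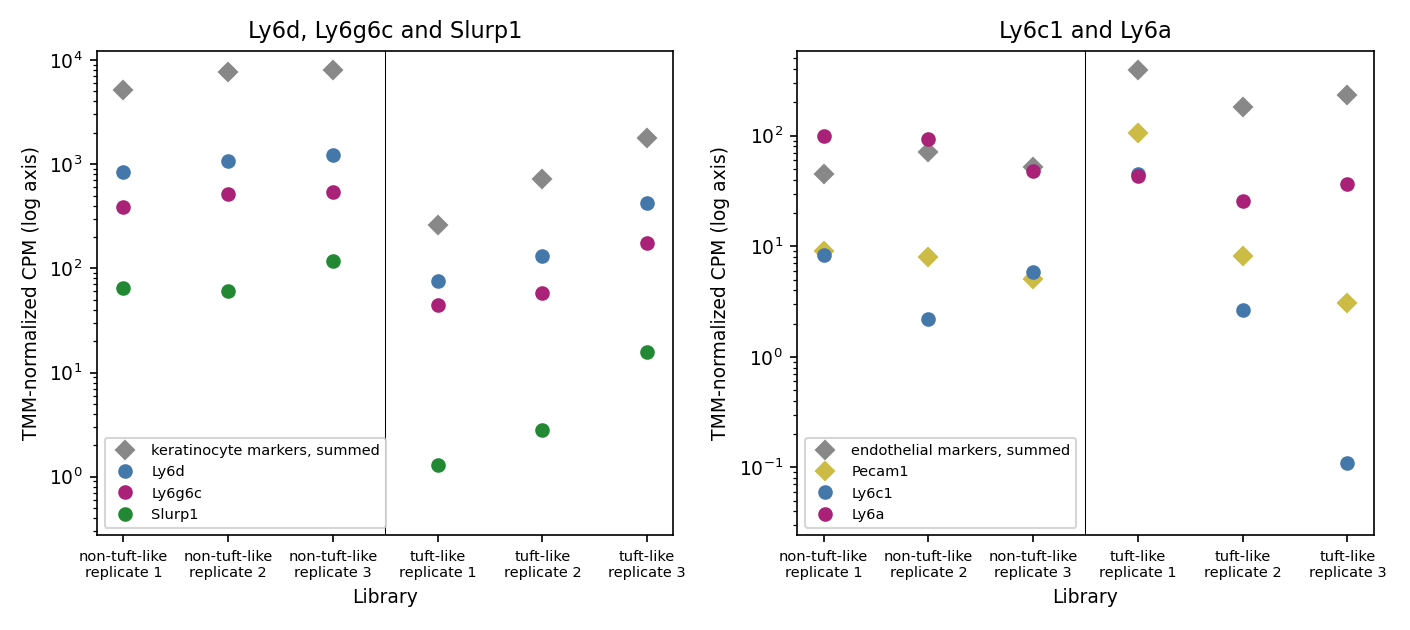
TMM-normalized CPM (log axis) by library, with circles for single Ly6 genes and diamonds for markers. On the left, Ly6d, Ly6g6c, Slurp1 and the summed keratinocyte markers are lower in all tuft-like libraries and highest among these in replicate 3, as are several other genes and lists not drawn here. On the right, Ly6c1 reaches 45.3 CPM in tuft-like replicate 1, where Pecam1 reaches 106 CPM.

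Ly6c1 and Ly6c2 encode the Ly6C antigens of monocytes, some T cells and endothelium. Ly6c1 had 8.27, 2.21 and 5.85 CPM in the non-tuft-like libraries and 45.3, 2.66 and 0.110 CPM in tuft-like replicates 1 to 3. A single tuft-like library was high, and the lowest of the 6 values came from another tuft-like library, with 4 counts. The fitted log2 fold change of 1.56 (SE 1.42) had the opposite sign, -1.97, without tuft-like replicate 1. In that library the endothelial marker Pecam1 was at 106 CPM, against 3.07 to 8.99 CPM in the other 5, and Kdr at 41.2 against 0.221 to 13.4 CPM. The summed level of the 8 endothelial markers was 45.2 to 70.7 CPM in non-tuft-like and 390, 181 and 235 CPM in tuft-like replicates 1 to 3. Most of that sum in replicates 2 and 3 was Tek, which was at 142 and 225 CPM there. Tek was the single marker of the list that was called (log2 fold change 2.93, SE 0.43, FDR 0.00565). The collagen gene Col3a1 of the fibroblast list was at 64.1 CPM in tuft-like replicate 1 and at 0 to 7.79 CPM elsewhere. The part of endothelial or fibroblast RNA in the Ly6c1 value was not tested.

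Ly6c2 had 6.25, 0.0639 and 1.02 CPM in non-tuft-like replicates. In tuft-like replicates it had 2.73, 1.02 and 1.55 CPM. Non-tuft-like replicate 1 was the highest and the groups overlapped, with a log2 fold change of -0.47 (SE 1.57). Ly6c1 was above the olfactory receptor background in 2 non-tuft-like libraries and 1 tuft-like library, Ly6c2 in 1 non-tuft-like library only. The 2 genes are near copies in part: 32.8% of the 50-base stretches of Ly6c1 and 14.5% of those of Ly6c2 occur in other genes. How their reads were divided between them is uncertain.

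Levels between genes were compared per kb of exon, with all annotated exons of a gene merged. Merged exons can be longer than the transcript that the cells make, so the order below depends on this choice. The lengths were 744 bases for Ly6d, 3784 for Ly6e and 2933 for Slurp1. Without regard to length, Ly6e had the higher mean in non-tuft-like cells, 1367 against 1052 CPM for Ly6d. In non-tuft-like cells Ly6d led, with 1414 ± 264 CPM per kb (SD, n = 3). Ly6e (361 ± 26.8) and Ly6g6c (355 ± 59.2) followed and did not differ beyond their spread. Ly6a (66.4 ± 23.1) and Ly6g6e (47.5 ± 8.13) came next and were not separated beyond their spread, Slurp1 (27.4 ± 10.7) lay below them, and the remaining 4 genes were under 4 CPM per kb. In tuft-like cells Ly6d (281 ± 250) and Ly6e (263 ± 97.6) were not separated from each other. Ly6g6f came next with 114 ± 46.0 CPM per kb, before Ly6g6c (67.3 ± 51.8). The spreads of these 2 genes overlapped, but Ly6g6f was the higher of them in each tuft-like library. Ly6a (29.2 ± 7.45) and Ly6g6e (25.0 ± 6.45) were alike within their spread, and Ly6g6d was at 13.1 ± 5.64.

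**Figure D4:**
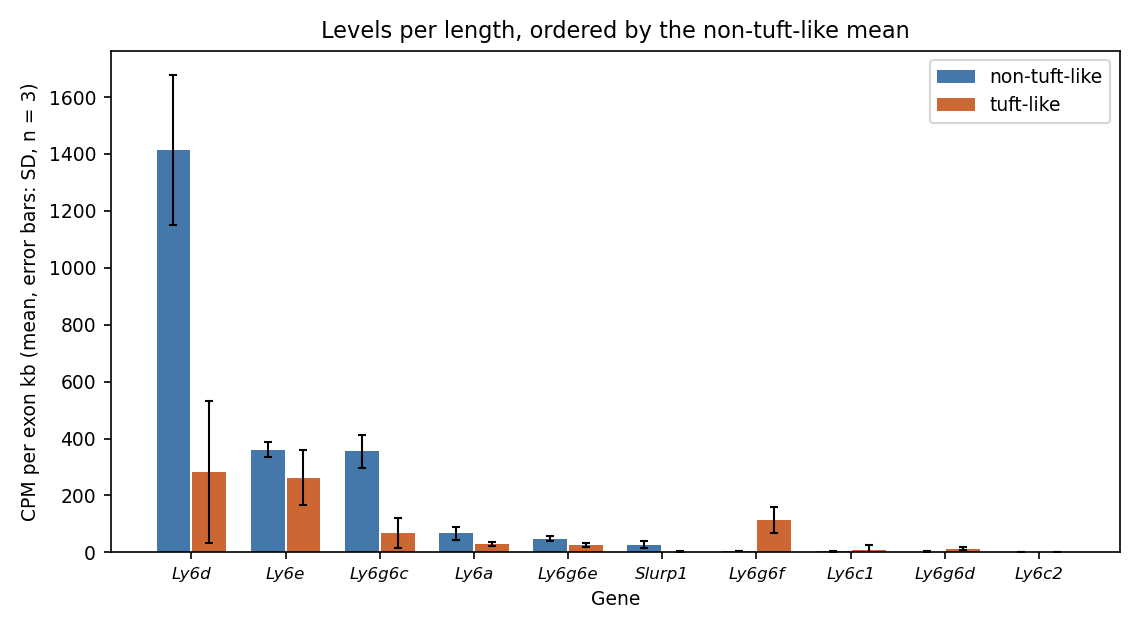
Mean CPM per kb of exon of the 10 Ly6 genes in non-tuft-like (blue) and tuft-like (orange) cells, ordered by the non-tuft-like mean, on a linear axis with SD over 3 libraries as error bars. Ly6d is the tallest bar in non-tuft-like cells at 1414, and Ly6g6f is the one gene of the higher bars whose tuft-like bar (114) exceeds its non-tuft-like bar (3.68).

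The rest of the family was tested as genes chosen by protein family and position rather than by value. Of 37 further Ly6/uPAR genes looked for, 34 had a row and 32 passed the filter on low counts. EdgeR's test called 3 of them, all lower in tuft-like cells, and 0 higher. Over all genes tested, 0.951% were called lower and 1.16% higher. Of the 32, 25 had a negative log2 fold change, beside 49.0% of all genes tested. The median was -0.91, beside 0.02 over all genes tested. Several of the 32, with estimates of either sign, were above the olfactory receptor background in no library. Gml, Gml2, Ly6f and Lypd9 were among these. Tuft-like replicate 3 had 0 counts in each of them and in other low genes of the list, such as Ly6i, Lypd6b and Cd59b. Zeros were more frequent in that library than in any other. Their part in the signs and the median was not tested. The 3 called were Ly6m, Lypd3 and Pinlyp, and each is given here with its libraries.

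Ly6m, listed under its older name 2010109I03Rik, lies between the listed genes of chromosome 15 (chr15:74876987-74897021). It had 124, 96.7 and 76.8 CPM in non-tuft-like and 8.55, 7.78 and 15.7 CPM in tuft-like replicates. It fell by 3.21 on the log2 scale (SE 0.38, FDR 0.00158), and the call stood under each of the 13 alternative settings tried. Tuft-like replicate 3 was again the highest tuft-like library.

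Lypd3, which encodes C4.4A, an adhesion protein of the upper epidermal layers, had 398, 337 and 392 CPM in non-tuft-like replicates (chr7:24636550-24641118). In tuft-like replicates it had 25.9, 44.6 and 99.5 CPM. It fell by 2.73 on the log2 scale (SE 0.46, FDR 0.0125). Without tuft-like replicate 2 the FDR was 0.0662.

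Pinlyp, a phospholipase inhibitor with the same fold (chr7:24541658-24546118), had 36.0, 47.3 and 32.2 CPM in non-tuft-like cells. The tuft-like values were 5.99, 8.01 and 11.4 CPM. It fell by 2.18 on the log2 scale (SE 0.42, FDR 0.0261). The call was lost without replicate 1 (FDR 0.0643) or 2 (0.212) of the non-tuft-like group, and without replicate 1 (0.0622) or 2 (0.118) of the tuft-like group.

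Among the uncalled relatives, Cd177, better known from neutrophils, had the highest level, with 4332, 3650.4 and 2249 CPM in non-tuft-like and 1443, 1985 and 2056 CPM in tuft-like replicates (log2 fold change -0.90, SE 0.41, FDR 0.587). Lypd5 had 467 to 515 CPM in non-tuft-like libraries and 8.93, 59.9 and 124 CPM in tuft-like replicates 1 to 3, and missed the threshold (log2 fold change -2.92, SE 0.71, FDR 0.0758). Lypd8, which coats intestinal bacteria in the gut lumen, had 80.7 to 207 against 47.9 to 130 CPM, with overlapping groups (log2 fold change -0.93, FDR 0.623). Lynx1, a brake on nicotinic receptors, had 32.1 to 51.3 against 9.71 to 40.0 CPM (log2 fold change -0.83, FDR 0.855). Lypd2 had 28.0 to 67.2 against 9.13 to 22.5 CPM without overlap (log2 fold change -1.80, FDR 0.119). Lypd1 differed little, with 9.53 to 23.7 against 11.4 to 16.4 CPM (log2 fold change -0.25, FDR 1.0).

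**Figure D5:**
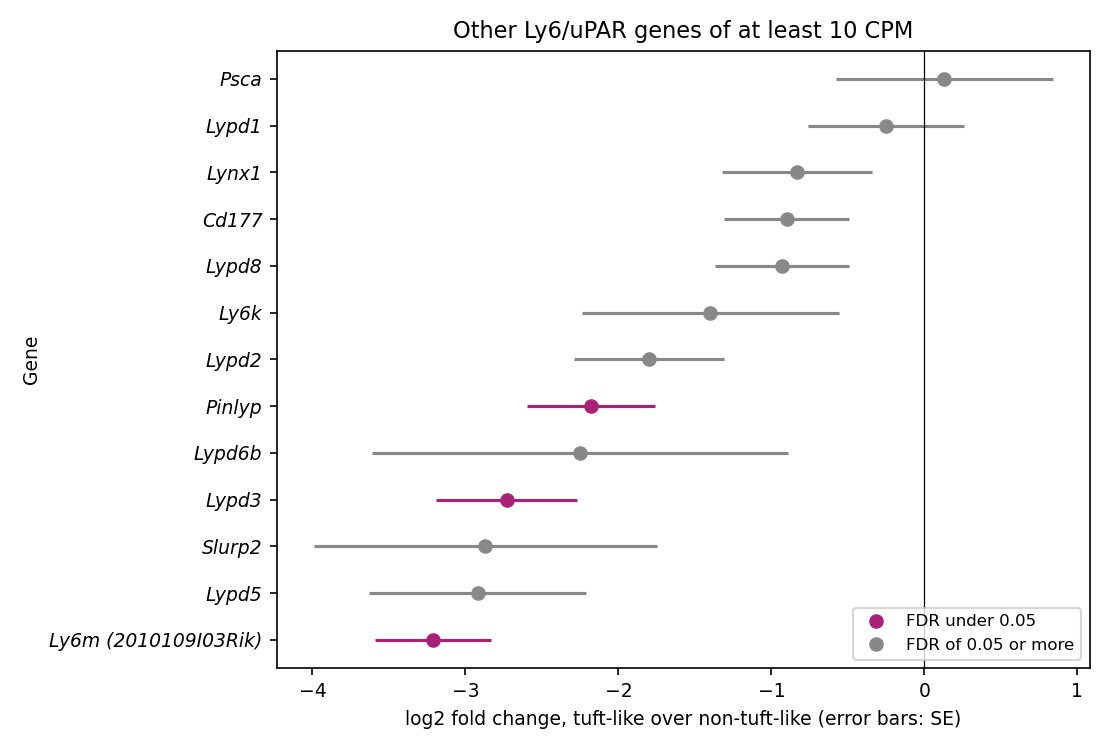
Log2 fold change (tuft-like over non-tuft-like, error bars SE) of the 13 further Ly6/uPAR genes whose mean reached 10 CPM in either group, purple where the FDR was under 0.05. Ly6m (-3.21), Lypd3 (-2.73) and Pinlyp (-2.18) passed, and Psca is the one gene drawn with an estimate above 0 (0.13).

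Around the Ly6 locus, 25 genes within 100 kb of its outermost members were tested, family members included. EdgeR's test called 2, both lower in tuft-like cells, Ly6m and Arc. Arc, a neuronal immediate early gene that lies near Slurp1, had 586 to 672 CPM in non-tuft-like and 169 to 235 CPM in tuft-like libraries and fell by 1.70 on the log2 scale (SE 0.29, FDR 0.0137). Over all genes tested, 0.951% were called lower. The median over the 25 genes was -1.40, beside 0.02 over all genes tested. Several of the 25, with estimates of either sign, were above the olfactory receptor background in no library, Gml, Cyp11b1 and Gm28068 among them. Family genes given above, such as Ly6m and Lypd2, are part of the 25, so this median repeats some of the family's values. When tuft-like replicate 3 was left out, 5 were called. The call of Ly6m alone remained when tuft-like replicate 2, or replicate 1 or 2 of the non-tuft-like group, was left out.

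Processes that Ly6 proteins depend on or take part in were looked at as lists of genes. Over all genes tested, 2.11% were called. Lists this short would hold few calls at that share, so little can be read from 0 calls. Of 28 tested genes of GPI anchor synthesis and attachment, edgeR called 0, with 2 at an unadjusted p under 0.05, DESeq2 called 1 (Pigz, lower) and limma voom 0. The median was 0.06, and the most abundant, Pigs of the GPI transamidase, had 120 ± 21.3 and 154 ± 69.0 CPM (SD, n = 3). Pigq, of the first step of the pathway, had 105 ± 26.7 and 102 ± 18.8 CPM. Of 16 subunits of nicotinic acetylcholine receptors, a family that holds targets of Slurp1 and Lynx1, edgeR and limma voom called 0. In edgeR's test 1 was at an unadjusted p under 0.05, and DESeq2 called that 1, Chrna10. Chrna10 had 21.9, 11.2 and 13.5 CPM in non-tuft-like and 29.9, 54.7 and 43.0 CPM in tuft-like replicates (log2 fold change 1.45, SE 0.41, FDR 0.129). Chrnb2 had 15.8 to 27.3 against 4.45 to 15.8 CPM (FDR 0.919), and the alpha7 subunit gene Chrna7, the best studied partner of Slurp1, was at 0 to 8.42 CPM in every library.

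Of 24 interferon response genes, the programme that induces Ly6a and Ly6e in many cells, 1 was called higher and 1 lower, with a median of -0.13. Over all genes tested, 1.16% were called higher and 0.951% lower. Rsad2, which encodes viperin, had 9.97, 21.8 and 10.96 CPM in non-tuft-like and 47.1, 44.8 and 73.1 CPM in tuft-like replicates and rose by 1.95 (log2, SE 0.42, FDR 0.0415). Ifit3, an antiviral effector gene, had 64.2, 66.7 and 44.7 against 12.3, 20.8 and 15.05 CPM and fell by 1.87 on the log2 scale (SE 0.35, FDR 0.0223). Both calls depended on single libraries. Leaving out replicate 1 of the non-tuft-like group gave 0 calls in the list. Ifit3 was the 1 gene called when replicate 3 of that group or tuft-like replicate 2 was left out, and Iigp1, an interferon-induced GTPase gene, was the 1 called without tuft-like replicate 1. The most abundant genes of the list, Usp18 (327 ± 21.9 and 315 ± 68.9 CPM) and Irf7 (232 ± 57.2 and 376 ± 112 CPM, SD, n = 3), did not pass (FDR 1.0 and 0.636).

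The genes most like Ly6a and Ly6g6c over the 6 libraries were sought among genes of at least 50 CPM on average, by Pearson's r of log2(CPM + 0.5). The 6 points share 2 groups of 3 libraries, so any gene that differs between the groups scores high. For Ly6a the 5 closest were Ibtk (r = 0.986), Dock6 (0.984), Pld1 (0.973), Ghrl (0.971), the ghrelin gene, and Cplx2 (0.969). For Ly6g6c they were Lpo (0.998), which encodes lactoperoxidase, Il1f5 (0.997), an interleukin-1 family gene of the epidermis, Ifitm2 (0.997) and the epithelial keratins Krt78 (0.997) and Krt5 (0.996). Krt5 had 247 to 395 CPM in non-tuft-like libraries and 10.1, 13.2 and 102 CPM in tuft-like replicates 1 to 3, and did not pass the test (FDR 0.0985).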

How the data were processed

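The 6 libraries, 3 per group, were grouped by their sample labels. Per the labels and the paper's methods, the authors used Trimmomatic 0.36 for trimming, STAR 2.7.3a for alignment to the mm10 build and HTSeq (intersection-nonempty) for counting per gene. They deposited the raw counts without normalization. The strand setting and annotation release are not given in the sources used here. Gene identifiers were matched to GENCODE M21, which names 99.56% of rows, and promoter windows are from RefSeq (GRCm38.p6).

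Counts were kept by filterByExpr (minimum count 10, total 15), scaled by TMM and tested in edgeR 4.0.16 (R 4.3.3) with the quasi-likelihood F-test, without covariates. P-values were adjusted by Benjamini-Hochberg over all genes tested. SEs were approximated by dividing the size of a log2 fold change by √F. Alternatives were RLE factors, library size only, DESeq2 1.42.0, limma voom 3.58.1, 2 other filters, a replicate block and each library left out. The scripts were tested on simulated data. A count of 0 allows up to 3 counts, or 0.0620 to 0.149 CPM before TMM scaling, for counting error only. Older symbols were matched through RefSeq synonyms, and 3 of the 37 further family genes had no match.

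The members, lists and tests were chosen with earlier results of these data known. Genes named are the 10 members, family genes called plus the 6 of highest mean CPM otherwise, list members called or among the 2 highest, called neighbours, and 5 genes most like Ly6a and Ly6g6c. Abhd16a, Vars, Pigz, Chrna7, Epcam and the markers quoted beside members were named after their values were seen. So were the genes named for 0 counts or for values near background. Protein sequences were not used here. The ERCC rows, at 0 in all libraries, and HTSeq's summary rows stayed out of library sizes.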

Additional observations from a re-analysis of the deposited data

How the results depend on the processing

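With 687 genes called in all, library size only gave 1045, DESeq2 1904 and no filter on low counts 1127, and leaving out each library gave 376 to 922. Leaving out tuft-like replicate 3 took the share of calls that were higher in tuft-like cells from 55.0% to 33.6%. Of the further family genes, 3 were called, against 7 with DESeq2 and 5 both with no filter and with the replicate number as a block, and 1 (without tuft-like replicate 2) to 7 (without tuft-like replicate 3) with a library left out. All these calls were lower in tuft-like cells. DESeq2 called 1 GPI anchor gene and 1 nicotinic receptor gene, where edgeR called 0 under each library left out. Interferon response calls were 2, against 5 with DESeq2, 4 with limma voom, with no filter and with the replicate block, and 0 to 2 with a library left out. Neighbours of the Ly6g6 cluster called were 0, against 2 with library size only and with DESeq2, 1 with limma voom and with the filter of 1 CPM in 3 libraries, and 0 to 1 with a library left out. Neighbours of the Ly6 locus called were 2, against 4 with DESeq2 and 1 to 5 with a library left out. The cause of these changes was not tested. Deviations from the group means correlated at -0.156, -0.061 and -0.326 for libraries of the same replicate number. These correlations give no sign that the numbers mark pairs, but with 3 libraries a group they cannot exclude it. Some single genes did follow the number in both groups. Epcam had 230, 771 and 930 CPM in non-tuft-like and 248, 784 and 1041 CPM in tuft-like replicates 1 to 3. Others did not, and Cd177 fell with the number in non-tuft-like libraries and rose with it in tuft-like ones. Whether the libraries are paired stays unknown. The block gave 737 calls in all. With the block, the 2 neighbours of the Ly6 locus called were Ly6m and Lypd2, and Arc was not called.

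Of the 10 members, 8 kept the sign of their fold change under all 13 alternatives. Ly6c1 (-1.97 to 2.10) and Ly6c2 (-1.05 to 1.73) changed sign in 3 of 13 each. Ly6g6f ranged from 4.54 to 5.18, Ly6g6c from -3.28 to -2.06, Ly6d from -3.39 to -1.92 and Slurp1 from -5.33 to -3.10. The common biological coefficient of variation was 1.1, and 3 libraries a group limit what could be called. Ly6c1, Ly6c2 and Ly6g6d were at or near the olfactory receptor background in some libraries, which limits what their values can show.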
